A study of Mus musculus with 21 samples.

Results

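Doxycycline withdrawal was compared with continued doxycycline in mouse small-intestinal organoids carrying an inducible, stabilised β-catenin. The comparison takes the 4 withdrawal arrays that bear the letters D, E, F and G and the 4 vehicle arrays with the same letters, 8 of the 21 arrays of the series, paired letter by letter. In the withdrawal organoids the drug had been removed for 24 hours and the treatment was recorded as vehicle; in the vehicle organoids doxycycline stayed in the medium and the treatment was also vehicle. Both groups had first been grown with doxycycline. All organoids came from chimera-derived mice in which M2-rtTA, the doxycycline-dependent activator, is expressed from the endogenous ROSA26 promoter (KH2 embryonic stem cells) and a tet-operator cassette carries the human, N-terminally myc-tagged ΔN89β-catenin, which lacks the part through which β-catenin is marked for destruction. Because ROSA26 is active in nearly all cells, the transgene is not limited to stem cells. Crypts were grown in Matrigel with epidermal growth factor, Noggin and R-spondin 1, and each RNA, labelled with Cy3, was hybridised beside a Cy5-labelled Universal Mouse Reference RNA on an Agilent two-colour array. Another group, given a compound known here only as compound 6 at 2 µM for 24 hours in the presence of doxycycline (4 arrays, letters D to G), is used in 1 comparison. No group lacked the transgene, so loss of its product and loss of doxycycline as a drug cannot be told apart. The labels do not say whether letters were separate cultures or animals, so the p-values describe no more than the scatter among these arrays, which may be technical.

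In the crypt, Wnt ligands keep β-catenin from being degraded. It then enters the nucleus, binds TCF/LEF factors and switches on genes that maintain stem cells and cell division, together with a set of feedback inhibitors such as Axin2, Rnf43 and Znrf3. As cells move onto the villus, Wnt activity falls, division stops and absorptive or secretory genes come on. A truncated β-catenin that escapes degradation keeps the programme on without a Wnt signal, as mutations of this pathway do in most intestinal tumours.

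Every level below is log2 of the organoid signal over the reference RNA, so 0 means as bright as the reference; a change is the withdrawal level minus the vehicle level. Sets of 4 values run through letters D, E, F and G. Changes carry the standard error of a limma fit over all 21 arrays with the letter as a block, and p-values are two-sided and adjusted (Benjamini-Hochberg) over 21353 genes.

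Epithelial markers were high in both groups. All 12 epithelial markers tested stood well above background on the 8 arrays; 1 rose, 4 fell and 7 did not pass, and their median level was 4.35 to 4.42 on withdrawal and 4.19 to 4.43 on vehicle. Villin (Vil1) averaged 6.45 on withdrawal and 6.36 on vehicle, and E-cadherin (Cdh1) 6.11 and 6.01. Fibroblast markers had a median level of -6.05 to -5.89 on withdrawal and -6.17 to -5.79 on vehicle, and none of the 11 tested passed. Col1a1 stood at -6.97 and -6.91, and the leukocyte gene Ptprc at -2.76 and -2.89. Other marker lists lay nearer the reference. Endothelial markers had a median level of -0.371 to -0.302 on withdrawal and -0.568 to -0.0448 on vehicle. For neural and glial markers it was 0.0277 to 0.271 and -0.297 to 0.175. The macrophage marker Adgre1, the dendritic cell marker Itgax, the endothelial Flt1 and the smooth muscle Cnn1 were not well above background on any of the 8 arrays. Between 44.8% and 46.3% of spots were well above background in Cy3. In bulk RNA, fewer cells of a type and less RNA per cell cannot be told apart, which holds for every result below.

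Letter F stood apart. Across all genes, the differences of letters D, E and G correlated at 0.83 to 0.86 with each other, whereas those of letter F correlated at 0.57 to 0.62 with the rest. Genes at least 2-fold lower in a single letter numbered 525, 479 and 586 for D, E and G, against 44 for F. Withdrawal array F differed too in some lists. Its median level was the lowest of its group for cytosolic ribosomal protein genes (-1.58, -1.56, -2.26 and -1.92). For tuft cell genes it was the highest (0.665, 0.687, 0.916 and 0.703). Values without letter F are given where a count rests on it. Slides also divided the groups unevenly. Withdrawal D, E and F lay on slide 4 with vehicle E, withdrawal G lay on slide 3 with vehicle D and F, and vehicle G lay on slide 5. Within slide 4 the S-phase genes had a median difference of -1.16 and within slide 3 of -0.692. For the ribosome biogenesis genes these were -1.16 and -0.705, and for the brush border genes 0.278 and 0.165. Within-slide differences, here and below, are not paired by letter, so differences between letters are mixed into them.

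Of 21353 genes tested, 8354 (39.1%) passed an adjusted p of 0.05 (limma), 3278 higher (15.4%) and 5076 lower (23.8%) on withdrawal. The direction was alike in all 4 letters for 2998 of the higher and 4743 of the lower genes. Over all 21353 genes, passing or not, 4685 were higher and 6138 lower in all 4 letters. The calls rest on the same letter differences, so this likeness is no separate support. The falls were the larger changes. 310 genes (1.45%) fell at least 2-fold, against 35 (0.164%) that rose as much, 57 fell at least 3-fold and 20 at least 4-fold, and the median change of all genes was -0.0107. Without letter F, 517 genes fell and 71 rose at least 2-fold, and without letter D 2147 genes were higher at any size. Without the letter as a block 4413 genes passed, 1555 higher and 2858 lower. Rises in the gene lists were over 1.5 times fewer without it in 35 of the 57 lists and falls in 19. Of the single genes given below, Max, Mxd1, Apc, Id2, Lgr4, Smad7, Birc5, Fads1, Rpl3, Slc28a2, Slc40a1, Cyp3a25, Cd36, Dbp, Ang4, Insm1 and Neurod1 did not pass without it. Of the passing genes 39.2% were higher; it was 50.0% when Agilent's own log ratios were fitted, 49.9% on Cy3 signals and 48.9% on the authors' value table. These shares of rises and falls are the background against which the gene groups below are read.

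**Figure D1:**
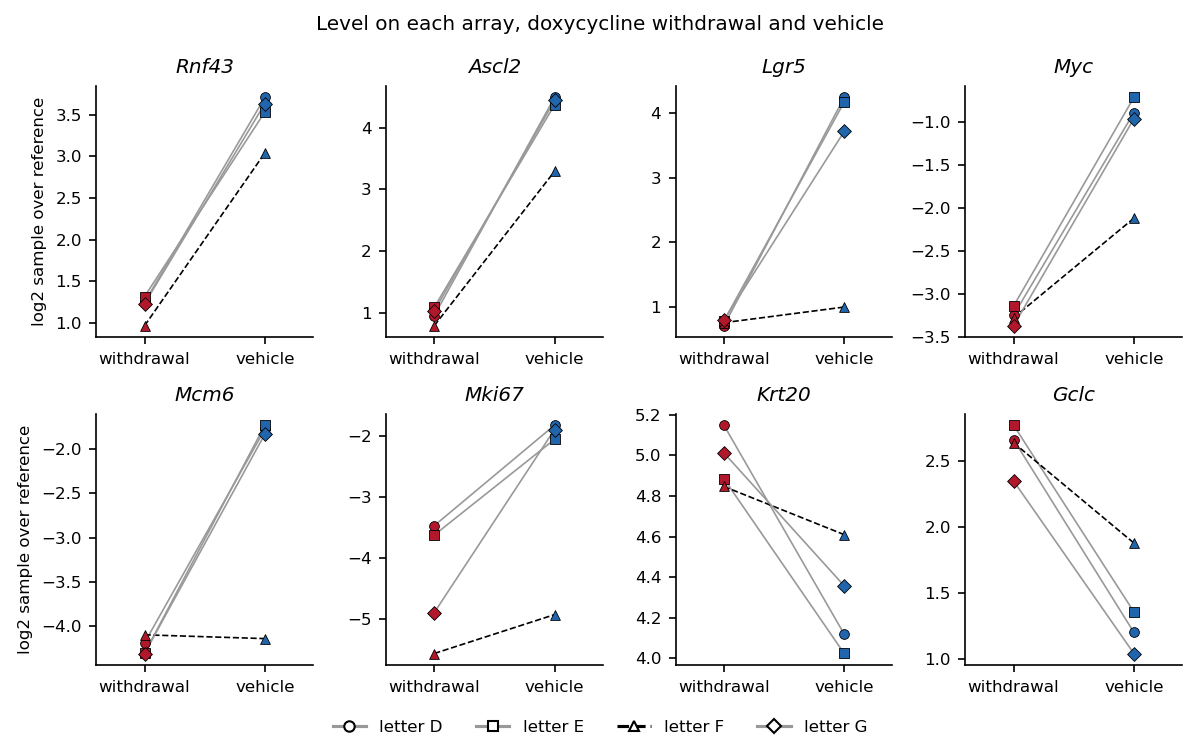
Level of 8 genes on each array, as log2 of organoid over reference RNA on the y axis, withdrawal left of vehicle; each symbol is an array, lines join arrays of a letter and letter F is dashed. Rnf43, Ascl2 and Myc separated fully, whereas vehicle F lay close to the withdrawal arrays for Lgr5 and Mcm6; for Krt20 and Gclc the withdrawal arrays were the higher ones.

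The negative feedback genes of the Wnt pathway contained 1 rise, 6 falls and 6 genes that did not pass among 13 tested, with a median change of -0.322. Rnf43, an E3 ligase that removes Frizzled receptors from the membrane, lay at 1.25, 1.32, 0.96 and 1.23 on withdrawal, against 3.71, 3.53, 3.04 and 3.63 on vehicle. Its groups did not overlap and it changed by -2.29 ± 0.09 (adjusted p = 1.6e-09). Axin2, a scaffold of the β-catenin destruction complex, lay at -0.58, -0.61, -0.47 and -0.57 on withdrawal, where it was not well above background, against 0.84, 1.15, 0.24 and 0.99 on vehicle. Withdrawal was therefore at least 2.37-fold lower (adjusted p = 3.7e-06). Tnfrsf19, a Wnt-induced receptor of stem cells, was 3.47-fold lower by its group means and likewise not well above background on withdrawal (adjusted p = 1.2e-06, limma). Shisa2, of a family that in the frog retains Frizzled inside the cell, changed by -1.22 ± 0.14. Lrig1, counted in this list although it inhibits ErbB receptors, changed by -0.82 ± 0.07. Znrf3, the partner of Rnf43, changed by -0.53 ± 0.08 and was above background on 2 of 4 withdrawal arrays. On the authors' value table Shisa2 was at -0.21 and did not pass (adjusted p = 0.884, limma).

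The nuclear arm of the pathway was less uniform, with 2 rises, 6 falls and 9 genes that did not pass of 17. Lef1, a TCF/LEF factor that is itself a Wnt target, lay at -2.68, -2.61, -2.69 and -2.60 on withdrawal, against -1.17, -1.20, -1.81 and -1.13 on vehicle. It changed by -1.31 ± 0.09 (adjusted p = 3.8e-07) with no overlap. Tcf7, another member of that family, was at least 1.85-fold lower (adjusted p = 1.2e-06) and not well above background on withdrawal. Bcl9, which tethers Pygopus to β-catenin, changed by -1.23 ± 0.14, with a second probe at -0.61, and the corepressor Tle3 by -0.69 ± 0.06. Apc, the scaffold lost in most colorectal tumours, changed by 0.23 ± 0.06. The mouse Ctnnb1 probe lay at 0.79, 0.78, 0.87 and 0.82 on withdrawal, against 0.66, 0.75, 0.82 and 0.82 on vehicle, and did not pass (change 0.05 ± 0.05, adjusted p = 0.42), although it passed at 0.15 from Agilent's own log ratios and at 0.16 on the authors' table. Whether that probe also reports the human transgene was not tested, and the transgene transcript was not measured otherwise. Of 17 ligand and receptor genes 2 rose, 3 fell and 12 did not pass; Lgr4, an R-spondin receptor, changed by -0.49 ± 0.12, and the co-receptor Lrp6 by 0.35 ± 0.10.

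Stem cell markers fell as a rule. Of 32 tested 23 fell, 2 rose and 7 did not pass, with a median change of -0.935, against 23.8% lower among all genes. Ascl2, the basic helix-loop-helix factor of crypt-base stem cells, lay at 0.95, 1.08, 0.79 and 1.03 on withdrawal, against 4.49, 4.37, 3.29 and 4.44 on vehicle, a change of -3.19 ± 0.20 (adjusted p = 1.3e-07) without overlap. Lgr5, the R-spondin receptor that marks those cells, lay at 0.72, 0.79, 0.76 and 0.80 on withdrawal, against 4.24, 4.16, 1.00 and 3.71 on vehicle. Its groups did not overlap, but vehicle F lay close to the withdrawal arrays, and the change was -2.51 ± 0.38 (adjusted p = 0.00012). The authors' table gave -3.40 for Lgr5, which did not pass (adjusted p = 0.258, limma). Cdca7, a gene of dividing progenitors, changed by -1.88 ± 0.18, and the water channel Aqp4 by -1.40 ± 0.22. Olfm4, also a Notch target, was at least 1.15-fold lower (adjusted p = 0.00068) and measured above background on 3 vehicle arrays and no withdrawal array. The array probes for Rnf43, Ascl2 and Lgr5 lie at chr11:87548958-87549017, chr7:150152734-150152793 and chr10:114887403-114887462 on mm9, the build in the file headers.

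Crypt ion transport genes had 10 falls, 3 rises and 8 that did not pass of 21. Kcne3 and Kcnq1 encode the subunits of the basolateral potassium channel that drives chloride secretion. Kcnq1 lay at 3.96, 4.02, 3.38 and 3.49 on withdrawal, against 6.06, 6.08, 5.27 and 6.11 on vehicle, without overlap (-2.17 ± 0.13, second probe -2.42); Agilent's ratios gave -1.12. Kcne3 changed by -3.12 ± 0.19 and was above background on 3 of 4 withdrawal arrays, although the authors' value table gave 1.70. Slc12a2, the chloride-loading cotransporter, lay at -1.24, -1.35, -1.44 and -1.34 on withdrawal, against 1.77, 1.82, -0.48 and 1.61 on vehicle, and changed by -2.52 ± 0.25 (adjusted p = 5.9e-06). Its groups did not overlap, and vehicle F was again the nearest to the withdrawal arrays. The water channel Aqp1 changed by -1.40 ± 0.19 and the calcium-activated channel regulator Clca3b by -1.56 ± 0.23, the second measured above background on 3 arrays of each group and not passing from Agilent's ratios (-0.82).

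Of 38 intestinal Wnt targets 22 fell, 5 rose and 11 did not pass (median -0.259). Sox9, a crypt and Paneth cell factor, lay at -1.07, -1.07, -0.97 and -1.19 on withdrawal, against 1.34, 1.40, 0.30 and 1.39 on vehicle, and changed by -2.18 ± 0.16 (adjusted p = 4.6e-07) with no overlap. Sp5, a zinc finger factor induced directly by Wnt signals, lay at 3.24, 3.66, 3.14 and 3.74 on withdrawal, against 5.20, 5.12, 4.55 and 5.63 on vehicle, and changed by -1.68 ± 0.16, again with no overlap. Sp5 did not pass at -0.22 from Agilent's ratios (adjusted p = 0.777, limma) or at -0.04 on the authors' table (adjusted p = 0.963, limma). Ccnd1, cyclin D1, changed by -1.83 ± 0.20, and the Ets factor Etv4 by -1.22 ± 0.19. Id2, which holds back basic helix-loop-helix factors, changed by 0.67 ± 0.09, and the ephrin ligand Efnb2 by 0.60 ± 0.08, both upwards. A second Efnb2 probe changed by 0.164. Pla2g5, a secreted phospholipase, had the lowest change of all genes. It lay at -1.86, -1.74, -1.91 and -1.84 on withdrawal, not well above background, against 2.21, 2.32, 0.18 and 2.18 on vehicle. Its group means differed 11.8-fold (adjusted p = 2.4e-07, limma), and the log2 difference in letter F alone was -2.10.

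The upstream windows of Sp5 and Pla2g5 are printed because Sp5 is a known direct Wnt target and Pla2g5 had the lowest change, and the 250 bases before the annotated start hold a TCF word. Sequences are from RefSeq on GRCm38.p6, read 5′ to 3′ on the gene's strand, with matches in capitals. The words searched on both strands were CTTTGAT, along with its variants CTTTGAA, further CTTTGTA, and finally CTTTGTT, for TCF/LEF, CACGTG (its own reverse complement) for the E-box bound by Myc and its partners, and TTTCCCGC, along with its variants TTTGGCGC, and finally TTTCGCGC, for E2F. Sp5 lies at chr2:70474673-70474922 on the + strand and Pla2g5 at chr4:138863470-138863719 on the - strand.
Sp5: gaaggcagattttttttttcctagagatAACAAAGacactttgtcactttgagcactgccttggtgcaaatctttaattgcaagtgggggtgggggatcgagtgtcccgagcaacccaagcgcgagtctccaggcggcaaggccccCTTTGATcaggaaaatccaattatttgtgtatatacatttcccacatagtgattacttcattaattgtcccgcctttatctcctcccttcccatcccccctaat
Pla2g5: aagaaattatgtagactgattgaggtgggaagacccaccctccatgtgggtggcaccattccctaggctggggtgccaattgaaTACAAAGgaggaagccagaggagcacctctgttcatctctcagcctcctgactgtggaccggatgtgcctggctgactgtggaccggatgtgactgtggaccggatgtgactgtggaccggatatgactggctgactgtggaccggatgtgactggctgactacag
Sp5 holds 2 TCF words and Pla2g5 1. The shares of windows with a word, here and below, also count the 50 bases after the start, which are not printed. A TCF word occurred in 16.9% of 27025 RefSeq windows outside the chromosome left out here, in 12.3% of the 11782 tested genes matched to a window, in 12.9% of the 225 matched genes that fell at least 2-fold and in 13% of the 23 that rose as much. None of the 9 matched negative feedback genes held one, and 12.5% of the 24 matched stem cell genes did. A match is a run of letters and not evidence of binding; many known TCF elements lie outside such a window.

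Myc, a transcription factor that drives cell growth, lay at -3.25, -3.14, -3.28 and -3.37 on withdrawal, against -0.90, -0.72, -2.12 and -0.97 on vehicle. The groups did not overlap and the change was -2.08 ± 0.16 (adjusted p = 9.5e-07; probe at chr15:61821417-61821476, mm9). Among its network, Max, its obligate partner, changed by 0.36 ± 0.06, Mxd1, which competes for Max and rises as cells stop dividing, by 0.58 ± 0.10, and the helicase subunit Ruvbl1 by -0.95 ± 0.10. Of 14 network genes 3 rose, 5 fell and 6 did not pass.

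Genes for ribosome production fell almost throughout. Of 49 ribosome biogenesis genes 48 fell, none rose and 1 did not pass, with a median change of -0.871, against 23.8% of all genes lower. The letter medians were -0.969, -1.1, -0.384 and -1.05. Nop56, a core protein of the particles that methylate ribosomal RNA, lay at -2.62, -2.68, -3.50 and -2.94 on withdrawal, against -0.70, -0.71, -2.95 and -0.93 on vehicle. It changed by -1.61 ± 0.18 (adjusted p = 1.4e-05), and its groups overlapped because vehicle F lay within the withdrawal range. Gar1 and Nhp2, subunits of the pseudouridine-forming particles, changed by -1.67 ± 0.16 and -1.60 ± 0.15, Ppan, a large-subunit maturation factor, by -1.58 ± 0.13, and the nucleolar Mybbp1a by -1.42 ± 0.14. Of 33 RNA polymerase I and III genes 20 fell and 13 did not pass (median -0.291). Polr1b, the second largest subunit of polymerase I, changed by -1.34 ± 0.14, and Rrn3, the factor that brings that polymerase to ribosomal DNA, by -0.55 ± 0.07. The largest subunit, Polr1a, changed by -1.41 ± 0.13, but its second probe, which was above background on 1 withdrawal and 2 vehicle arrays, changed by 0.111.

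All 53 cytosolic ribosomal protein genes fell, with a median of -0.515 and letter medians of -0.729, -0.53, -0.227 and -0.612. Rpl3 lay at -1.93, -1.88, -2.94 and -2.45 on withdrawal, against -1.04, -1.15, -2.61 and -1.56 on vehicle, with overlap through vehicle F, and changed by -0.71 ± 0.10. Without the letter as a block 3 of the 53 fell, and the median was -0.279 from Agilent's ratios, -0.217 from Cy3 alone and -0.264 from the authors' table. These genes have many near-identical pseudogenes, so single values are uncertain. Of 35 translation factors 27 fell (median -0.39), Eef1g changing by -0.76 ± 0.10 and Eif4a1, the cap-dependent helicase, by -0.66 ± 0.08. Of 22 cytosolic tRNA synthetase genes 16 fell and 6 did not pass. Gars, which charges glycine, lay at -1.10, -1.10, -1.34 and -1.34 on withdrawal, against 0.23, 0.18, -0.44 and -0.01 on vehicle, and changed by -1.21 ± 0.07 (adjusted p = 5.6e-08) with no overlap. In these lists none rose.

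The windows of Rrn3 and Cdk4, the kinase of the G1 cyclins, are shown because each gene fell and holds the E-box CACGTG, in capitals. Rrn3 lies at chr16:13780449-13780698 and Cdk4 at chr10:127063285-127063534, both on the + strand (GRCm38.p6, RefSeq).
Rrn3: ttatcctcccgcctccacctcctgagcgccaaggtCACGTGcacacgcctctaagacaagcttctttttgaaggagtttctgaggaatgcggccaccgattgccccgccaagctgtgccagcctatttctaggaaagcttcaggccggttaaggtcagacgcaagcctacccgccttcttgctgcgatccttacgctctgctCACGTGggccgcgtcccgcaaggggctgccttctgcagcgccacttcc
Cdk4: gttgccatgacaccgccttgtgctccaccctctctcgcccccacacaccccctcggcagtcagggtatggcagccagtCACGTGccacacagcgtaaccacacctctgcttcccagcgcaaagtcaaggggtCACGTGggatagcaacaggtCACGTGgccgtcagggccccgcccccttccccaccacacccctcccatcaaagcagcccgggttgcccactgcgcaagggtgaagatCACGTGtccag
Rrn3 holds 2 such words and Cdk4 4. The word occurred in 7.24% of all windows, in 9.74% of tested genes, in 18.6% of the 43 matched ribosome biogenesis genes (8 genes), in 17.2% of the 29 matched nucleotide synthesis genes and in 7.32% of the 41 matched ribosomal protein genes. Among the genes at least 2-fold lower the share was 12.9%, and 13% among those at least 2-fold higher.

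Genes that supply growing cells fell as well. Of 32 purine and pyrimidine synthesis genes 24 fell and 2 rose (median -0.495). Ctps, which makes CTP, lay at -5.15, -4.95, -5.50 and -5.18 on withdrawal, against -2.66, -2.64, -4.91 and -2.79 on vehicle, and changed by -1.94 ± 0.23 (adjusted p = 2e-05). Vehicle F came next to the withdrawal arrays without overlapping them. Mthfd1, a folate enzyme, changed by -1.74 ± 0.14 and Impdh2, which commits purines to GTP, by -1.36 ± 0.14. Of 17 genes of amino acid transport and serine synthesis 11 fell and 1 rose; Slc38a1, a glutamine carrier, changed by -1.78 ± 0.10 and Srm, spermidine synthase, by -1.24 ± 0.14. Of 23 chaperones 21 fell (median -0.501), with Hspd1, the mitochondrial chaperonin, at -1.21 ± 0.11. Of 38 mitochondrial ribosome genes 32 fell (median -0.391) and of 31 proteasome genes 26 fell (median -0.288). Respiratory chain subunits had 30 falls of 48, but their median of -0.181 became 0.0334 from Agilent's ratios and 0.00803 from the authors' table, and 1 fell without the letter block. In glycolysis 4 rose, 3 fell and 17 did not pass.

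**Figure D2:**
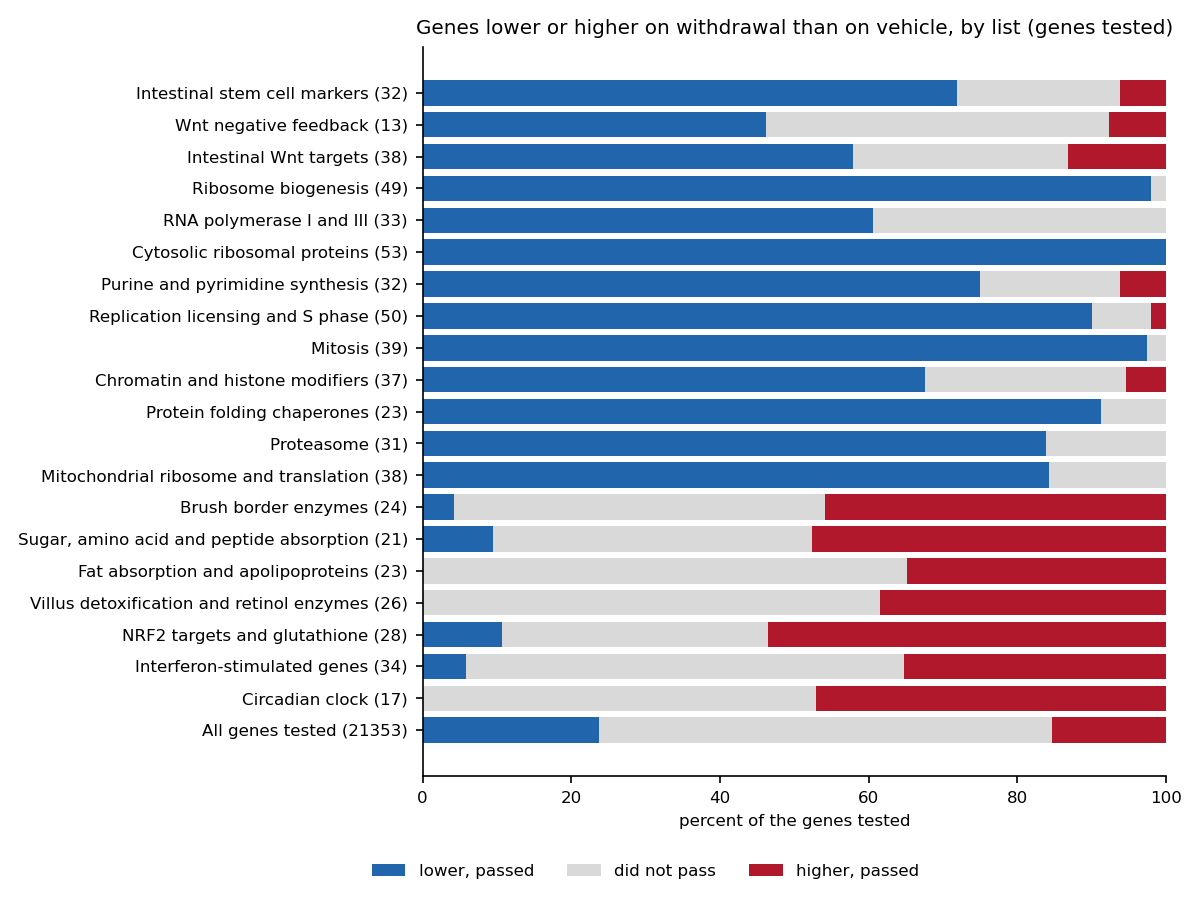
Percent of the tested genes of each list (number in brackets) that passed and were lower on withdrawal than on vehicle (blue), did not pass (grey) or passed and were higher (red), at adjusted p 0.05. The last bar gives all genes tested, 23.8% lower and 15.4% higher; all 53 cytosolic ribosomal protein genes were lower.

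DNA replication genes fell in 3 letters far more than in the other. Of 50 licensing and S-phase genes 45 fell, 1 rose and 4 did not pass (median -0.888), and the letter medians were -1.08, -1.06, -0.216 and -1.2. Mcm6, a subunit of the replicative helicase, lay at -4.18, -4.30, -4.09 and -4.30 on withdrawal, against -1.78, -1.73, -4.14 and -1.83 on vehicle. In letter F the vehicle array was as low as the withdrawal arrays, so the groups overlapped; the change was -1.85 ± 0.36 (adjusted p = 0.00072). Its partner Mcm7 lay at -3.67, -3.71, -4.26 and -4.27 on withdrawal, against -1.37, -1.33, -3.84 and -1.57 on vehicle, and changed by -1.95 ± 0.25. Uhrf1, which carries DNA methylation through replication, changed by -2.49 ± 0.31 with 3 of 4 withdrawal arrays above background, Rrm2, a subunit of ribonucleotide reductase, by -2.29 ± 0.29, and the primase Prim1 by -2.15 ± 0.26. In all 3 the groups overlapped through vehicle F.

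The windows of Mcm6 and Mcm7 are shown for their E2F words, in capitals. Mcm6 lies at chr1:128359706-128359955 and Mcm7 at chr5:138171884-138172133, both on the - strand (GRCm38.p6, RefSeq).
Mcm6: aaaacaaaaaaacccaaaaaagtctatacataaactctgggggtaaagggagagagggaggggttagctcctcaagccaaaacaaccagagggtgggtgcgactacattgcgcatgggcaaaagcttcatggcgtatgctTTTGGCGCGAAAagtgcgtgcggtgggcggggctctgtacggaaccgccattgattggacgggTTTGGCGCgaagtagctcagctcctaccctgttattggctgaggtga
Mcm7: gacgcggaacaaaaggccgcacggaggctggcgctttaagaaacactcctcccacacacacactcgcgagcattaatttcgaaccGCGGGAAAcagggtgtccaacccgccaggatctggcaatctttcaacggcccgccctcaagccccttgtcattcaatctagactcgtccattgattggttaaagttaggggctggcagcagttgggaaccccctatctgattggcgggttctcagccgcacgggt
Mcm6 holds 3 matches, of which 2 overlap in 1 run, and Mcm7 holds 1. An E2F word was found in 35% of the 40 matched S-phase genes (14 genes), against 1.91% of all windows and 3.23% of tested genes. The share was 8.89% among genes at least 2-fold lower, 4.35% among those at least 2-fold higher, 6.98% for ribosome biogenesis and 2.86% for the 35 matched mitosis genes.

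Of 39 mitosis genes 38 fell and 1 did not pass (median -0.839). Mki67, the proliferation antigen, lay at -3.47, -3.63, -5.57 and -4.90 on withdrawal, against -1.82, -2.06, -4.93 and -1.89 on vehicle; the groups overlapped through vehicle F and the change was -1.72 ± 0.25 (adjusted p = 8.4e-05). The mitotic kinase Plk1 changed by -1.45 ± 0.20, topoisomerase Top2a by -1.38 ± 0.24 and the kinetochore gene Spc25 by -1.51 ± 0.20. Of 29 recombination and fork repair genes 20 fell and 1 rose (median -0.476). Of 23 G1 genes 13 fell, 2 rose and 8 did not pass. Ccnd2, cyclin D2, lay at -1.89, -1.76, -2.31 and -1.77 on withdrawal, against 1.09, 1.21, -0.73 and 1.17 on vehicle, and changed by -2.62 ± 0.17 (adjusted p = 2.4e-07) with no overlap. Cdk4 changed by -0.94 ± 0.10 and E2f1, a transcription factor of S-phase entry, by -1.09 ± 0.16.

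Of 8 inhibitors of cyclin-dependent kinases 5 did not pass, close to the share among all genes. Cdkn1a (p21) changed by 0.10 ± 0.12 (adjusted p = 0.54) and Cdkn1b (p27) by -0.06 ± 0.05 (adjusted p = 0.45), and neither passed. Cdkn2b (p15) rose by 0.62 ± 0.08. Of 23 p53 targets 5 rose, 9 fell and 9 did not pass. Aen, a nuclease, lay at -2.31, -2.21, -2.97 and -2.69 on withdrawal, against -0.46, -0.47, -1.98 and -0.74 on vehicle, and changed by -1.63 ± 0.14; vehicle F, at the bottom of its group, was still above the withdrawal arrays. Fas, a death receptor, moved the other way, at 1.66, 1.63, 1.88 and 1.64 on withdrawal, against 0.52, 0.58, 1.44 and 0.75 on vehicle (0.88 ± 0.10). Chromatin genes had 25 falls and 2 rises of 37 (median -0.599), among them Asf1b, a histone chaperone of S phase (-1.78 ± 0.22), Hmgb2 (-1.20 ± 0.20) and the methyltransferase Prmt5 (-1.18 ± 0.13). The Mediator kinase genes Cdk8 and Cdk19 changed by 0.06 ± 0.06 and -0.14 ± 0.07, and none of the 6 genes in that list passed.

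**Figure D3:**
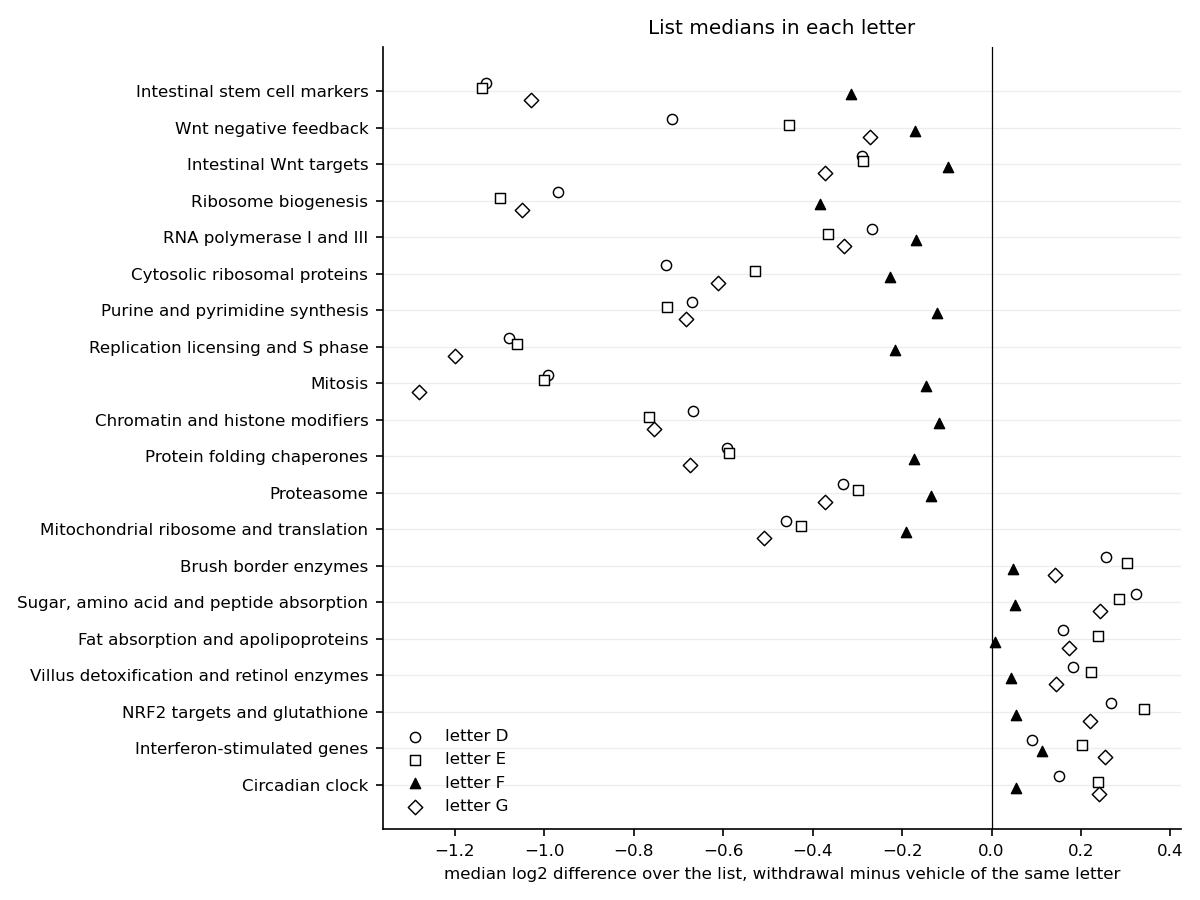
Median over each list of the log2 difference of withdrawal minus vehicle in letters D, E, F and G, 1 symbol per letter with letter F filled. For S phase the 4 letters stand at -1.08, -1.06, -0.216 and -1.2; letter F is the nearest to 0 in each of the falling lists drawn.

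Rises were smaller than falls, and genes of absorptive cells were among them. Krt20, a keratin of villus cells, lay at 5.15, 4.89, 4.85 and 5.01 on withdrawal, against 4.12, 4.02, 4.61 and 4.36 on vehicle, with no overlap and a change of 0.70 ± 0.10 (adjusted p = 0.00011). Of 24 brush border genes 11 rose, 1 fell and 12 did not pass (median 0.184), against 15.4% higher among all genes; without the letter block 5 rose. The lactase gene Lct changed by 0.63 ± 0.14, sucrase-isomaltase (Sis) by 0.47 ± 0.10 and the aminopeptidase Enpep by 0.55 ± 0.10. Alpi, the intestinal alkaline phosphatase, lay at 5.54, 5.62, 5.41 and 5.55 on withdrawal, against 5.64, 5.48, 5.47 and 5.52 on vehicle, and did not pass (change 0.00 ± 0.07, adjusted p = 0.99).

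Of 21 sugar, amino acid and peptide absorption genes 10 rose, 2 fell and 9 did not pass (median 0.237). Slc6a19, the carrier of neutral amino acids, lay at 7.76, 7.83, 7.73 and 7.83 on withdrawal, against 6.95, 6.73, 7.49 and 6.93 on vehicle. Its groups did not overlap, although vehicle F came within 0.24 of them, and it changed by 0.76 ± 0.13 (adjusted p = 0.00028). The glucose carrier Slc2a2 changed by 0.53 ± 0.13 and the nucleoside carrier Slc28a2 by 0.65 ± 0.15, while the iron exporter Slc40a1 changed by -0.51 ± 0.08. Of 23 fat absorption genes 8 rose and 15 did not pass, with the fatty acid receptor Cd36 at 0.67 ± 0.09 and Apob, the backbone of chylomicrons, at 0.48 ± 0.11. Fat oxidation had 8 rises, 2 falls and 12 that did not pass of 22, with Cyp4a10 at -0.81 ± 0.11; without the letter block 1 rose and 1 fell. Villus detoxification genes rose in 10 of 26 and fell in none, among them Cyp3a25 (0.73 ± 0.15) and the efflux pump Abcg2 (0.47 ± 0.06), and without the letter block 4 rose. Slc2a2 (0.18), Apob (0.27), Enpep (0.33) and Cyp3a25 (1.13) did not pass from Agilent's ratios, and Lct was at 0.28 there. Unpaired by letter, Slc28a2 differed by 1.59 within slide 4 and by -0.0501 within slide 3.

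Targets of NRF2, the regulator of the antioxidant response, had 15 rises, 3 falls and 10 that did not pass of 28 (median 0.188). Gclc, the rate-limiting enzyme of glutathione synthesis, lay at 2.67, 2.77, 2.64 and 2.35 on withdrawal, against 1.21, 1.36, 1.88 and 1.04 on vehicle; the groups did not overlap and it changed by 1.24 ± 0.11 (adjusted p = 3.7e-06). The carbonyl reductase Cbr3 changed by 1.12 ± 0.12, Osgin1 by 1.09 ± 0.10 and Gstm4, a glutathione transferase, by 0.86 ± 0.11, whereas the crypt peroxidase Gpx2 changed by -0.74 ± 0.10 (-0.28 from Agilent's ratios). In cholesterol and fatty acid synthesis 15 fell, 1 rose and 19 did not pass of 35, with the desaturase Fads1 at -0.74 ± 0.12 and the elongase Elovl5 at -0.82 ± 0.08.

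Among the highest rises of named genes was Slc16a9, a carnitine and creatine carrier. It lay at 3.25, 3.45, 5.00 and 3.31 on withdrawal, against 1.46, 1.76, 4.51 and 1.70 on vehicle, overlapping through vehicle F, and changed by 1.40 ± 0.16, with a second probe at 0.666, but did not pass without the letter block. Gda, guanine deaminase, lay at 2.76, 2.63, 2.52 and 2.91 on withdrawal, against 1.30, 1.31, 1.82 and 1.28 on vehicle, and changed by 1.28 ± 0.12 (adjusted p = 5.1e-06) with no overlap. Bcl2l15, a Bcl2 family member of the gut, changed by 1.15 ± 0.08 and Asah2, the neutral ceramidase of the brush border, by 1.09 ± 0.12. Hif1a, the oxygen-regulated factor, changed by 1.09 ± 0.14 and its second probe by 0.479. Hpgd, which degrades prostaglandins, lay at 6.34, 6.49, 7.05 and 6.42 on withdrawal, against 5.48, 5.79, 6.66 and 3.02 on vehicle. Its change of 1.34 ± 0.36 rested in large part on vehicle G, the other vehicle arrays being at 5.48 to 6.66; without vehicle G it was 0.67, and it did not pass without the letter block. Pck1, which commits carbon to glucose synthesis, changed by 1.26 ± 0.20, but the authors' table gave -0.133.

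Among other large falls were Rgcc, a cell-cycle regulator that lay at -1.87, -1.97, -2.19 and -1.84 on withdrawal, against 1.30, 1.43, -0.51 and 1.13 on vehicle (-2.80 ± 0.19). Lect2, a secreted protein known as a β-catenin target in liver, lay at 1.17, 1.44, 0.90 and 0.95 on withdrawal, against 3.40, 3.42, 2.25 and 3.41 on vehicle (-2.0 ± 0.22). Both separated fully by group, but Lect2 was at -0.59 from Agilent's ratios (adjusted p = 0.316, limma) and at -0.25 on the authors' table (adjusted p = 0.748, limma), past the threshold in neither. The UDP receptor P2ry6 changed by -1.85 ± 0.10, with 3 of 4 withdrawal arrays above background, the tubulin Tubb2b by -2.25 ± 0.14 and the tetraspanin Tspan12 by -2.09 ± 0.21.

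Secretory lineage lists passed in shares on either side of the 39.1% of all genes. Of 19 goblet cell genes 4 rose, 1 fell and 14 did not pass, with Muc2, the gel-forming mucin, at 0.27 ± 0.08. Of 20 Paneth cell genes 3 rose, 6 fell and 11 did not pass. Ang4 changed by -0.52 ± 0.18 and the antimicrobial lectin Reg3g by 0.43 ± 0.08. Unpaired by letter, Ang4 differed by -1.45 within slide 4 and 0.914 within slide 3. The enteroendocrine list had 7 rises among 30, with the factors Insm1 at 0.31 ± 0.11 and Neurod1 at 0.23 ± 0.08. Of 22 tuft cell genes 7 rose, 1 fell and 14 did not pass. Without the letter block no Paneth gene fell, and the rises were 1 for goblet, 1 for Paneth, 1 for enteroendocrine and 0 for tuft genes. Muc2, Ang4, Reg3g, Insm1 and Neurod1 did not pass from Agilent's ratios. Over all 24 alternatives, Insm1 lost its call in 16, Neurod1 in 14, Ang4 in 11, Muc2 in 6 and Reg3g in 3. The within-slide medians of the tuft list, also unpaired by letter, differed in sign, 0.322 on slide 4 and -0.114 on slide 3.

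Regulators of crypt to villus position moved in both directions. Klf4, a factor of non-dividing epithelium, lay at 0.63, 0.75, 1.53 and 0.89 on withdrawal, against -0.09, -0.13, 1.21 and -0.07 on vehicle, overlapping through vehicle F, and changed by 0.72 ± 0.09 (adjusted p = 3.5e-05). Foxa3 changed by -0.74 ± 0.12, and of the 28 identity factors 7 rose, 4 fell and 17 did not pass. In the BMP list, whose signals oppose stem cell renewal, 8 rose, 4 fell and 12 did not pass; the ligand Bmp7 lay at -0.43, -0.21, -0.88 and -0.47 on withdrawal, against 1.11, 1.06, -0.26 and 0.95 on vehicle (-1.21 ± 0.11, overlapping through vehicle F), and the inhibitory Smad7 changed by 0.29 ± 0.07. Of 24 Notch genes 2 rose, 6 fell and 16 did not pass, with the target Hes1 at -0.38 ± 0.07 and the ligand Dll1 at 0.35 ± 0.08. In the EGF and ERK feedback list 6 rose, 5 fell and 11 did not pass; Errfi1, an EGF receptor inhibitor, changed by 0.72 ± 0.08, Dusp6, the ERK phosphatase, by 0.55 ± 0.06, and Etv5 by -0.56 ± 0.08.

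YAP targets had 3 rises, 2 falls and 20 that did not pass of 25. Of 34 adhesion and junction genes 7 rose, 12 fell and 15 did not pass. Efna4, an ephrin ligand, changed by -1.09 ± 0.11, and Itga6, the laminin receptor, by -0.93 ± 0.07, with a second probe at -0.102. Of 34 interferon-stimulated genes 12 rose, 2 fell and 20 did not pass (median 0.143), with the sensor gene Ddx58 at 0.62 ± 0.07 and Parp14 at 0.72 ± 0.09. Of 25 genes of the unfolded protein response 7 rose, 1 fell and 17 did not pass, Dnajb9, a co-chaperone of the endoplasmic reticulum, changing by 0.69 ± 0.09. Of 17 circadian clock genes 8 rose and none fell (median 0.222), Dbp, a clock output factor, changing by 0.54 ± 0.08 and Clock by 0.38 ± 0.07; without the letter block 2 rose. In the hypoxia list 6 rose, 3 fell and 11 did not pass, and without the block 1 rose and 1 fell. Rises without the block numbered 6 for the interferon, 3 for the unfolded protein, 2 for the BMP and 2 for the EGF list.

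Letter F was compared with the other letters gene by gene, as the F difference in percent of the mean difference of D, E and G. Over the 310 genes at least 2-fold lower the median was 34% (quartiles 21% and 47.9%), with 99 genes under 25% and 21 over 75%; over the 35 at least 2-fold higher it was 48.8%. The median level of the 310 genes was -2.45, -2.4, -2.88 and -2.65 on the withdrawal arrays, against -0.935, -0.921, -2.34 and -1.1 on the vehicle arrays. Letter F was thus the lowest in both groups, with the wider gap on vehicle. Of the 310 genes 99.4% were still lower on withdrawal in letter F. Fitted without letter F, 46 of 50 S-phase genes, 39 of 39 mitosis genes, 48 of 49 ribosome biogenesis genes and 23 of 32 stem cell markers fell, with medians of -1.12, -1.14, -1.01 and -1.06, and 14 of 24 brush border genes rose.

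Over the 274 of the 310 lower genes that were above background on all 8 arrays the median share was 34.7%. Such members had a median share of 18.1% for S phase (18 genes), 20.4% for mitosis (14 genes) and 39.3% for ribosome biogenesis (16 genes). For stem cell markers it was 46.3% (10 genes), with 4 genes under 25% and 2 over 75%. The intestinal Wnt targets had 29.1% (10 genes), with 4 under 25% and 1 over 75%. Mcm6 had an F share of -1.72%, Birc5, a mitotic survival gene, 0.372%, Lgr5 7.38%, Mki67 30.7% and Slc12a2 31.4%. Myc stood at 48.3%, Lef1 60.1%, Ascl2 73.4%, Sp5 79.7%, Kcnq1 83.6% and Rnf43 87.9%. The genes were chosen on all 4 letters, these are values of 1 letter without a test, and what set letter F apart was not tested.

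**Figure D4:**
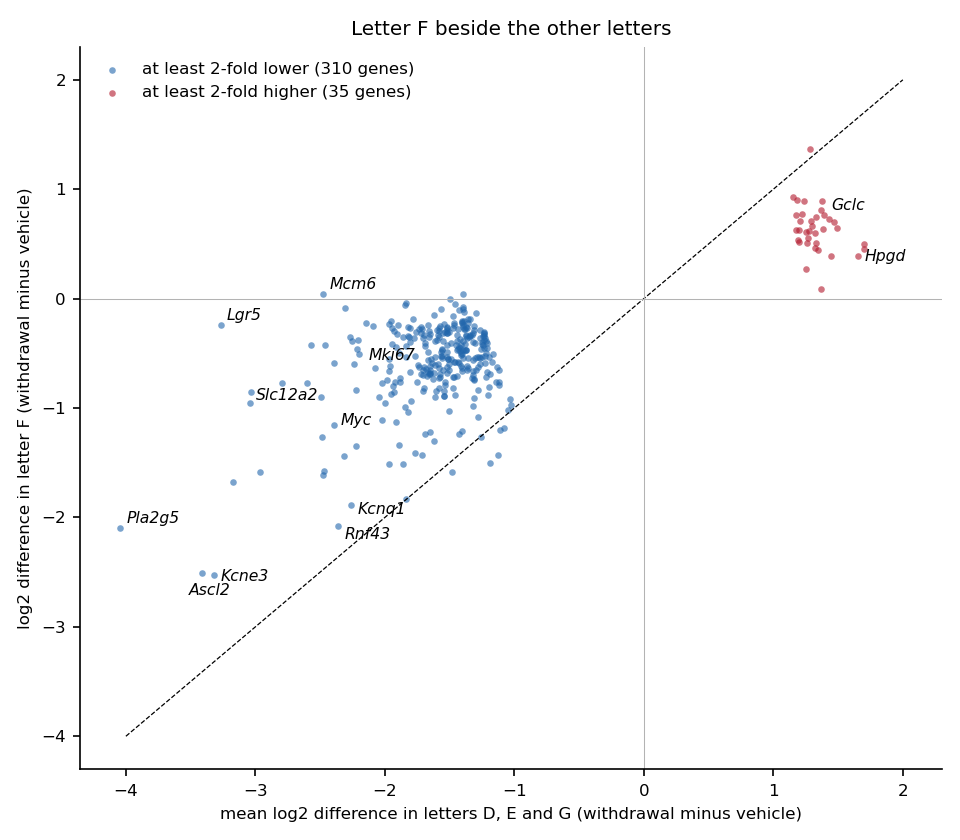
Each point is one of the genes at least 2-fold lower (blue, 310) or higher (red, 35), with the mean log2 difference of letters D, E and G on the x axis and that of letter F on the y axis, both withdrawal minus vehicle; the dashed line marks equal differences. Rnf43 and Kcnq1 lie near the line, and Mcm6 and Lgr5 near 0 on the y axis.

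Withdrawal was also set against compound 6, given for 24 hours with doxycycline kept. This contrast uses no vehicle array. It passed for 7281 of 21353 genes (34.1%), 3138 higher and 4143 lower on withdrawal, with 95 and 127 at least 2-fold; the median was -0.0171. Myc was -1.96 on withdrawal relative to compound 6 (adjusted p = 6.9e-07), Rnf43 -1.15 and Ascl2 -0.94 (adjusted p = 0.002). Ascl2 lay at 0.95, 1.08, 0.79 and 1.03 on withdrawal, against 2.16, 2.18, 0.69 and 2.57 with compound 6, where the array of letter F was below all withdrawal arrays. Lgr5, at -0.35, did not pass (adjusted p = 0.52, 95% interval -1.17 to 0.46). Ribosome biogenesis genes had a median of -0.574 with 45 of 49 passing in either direction, NRF2 targets -0.523 with 23 of 28 and S-phase genes -0.272 with 13 of 50. Mcm6 lay at -4.18, -4.30, -4.09 and -4.30 on withdrawal, against -2.39, -2.54, -2.01 and -2.59 with compound 6, without overlap, so for this gene letter F was not low with compound 6 as it was on vehicle.

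Among the lowest named genes in that contrast were Runx1 (-3.23), Cyp2c55 (-2.49), Fgf18 (-2.39) and Akr1b8 (-2.29), an aldo-keto reductase of the NRF2 list. Runx1 lay at -1.89, -1.79, -1.51 and -1.70 on withdrawal, against 1.03, 1.18, 2.24 and 1.59 with compound 6, without overlap, and at -1.72, -1.80, -1.20 and -1.56 on vehicle. The highest included Sgk2 (2.00), Cyp2c23 (1.95) and 5 genes of the Mup cluster, near-identical copies whose single values are uncertain. Gclc was -1.70, having risen by 1.24 ± 0.11 against vehicle. Compound 6 and withdrawal were not compared with vehicle by overlap of their calls, since both contrasts would share the vehicle arrays.

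**Figure D5:**
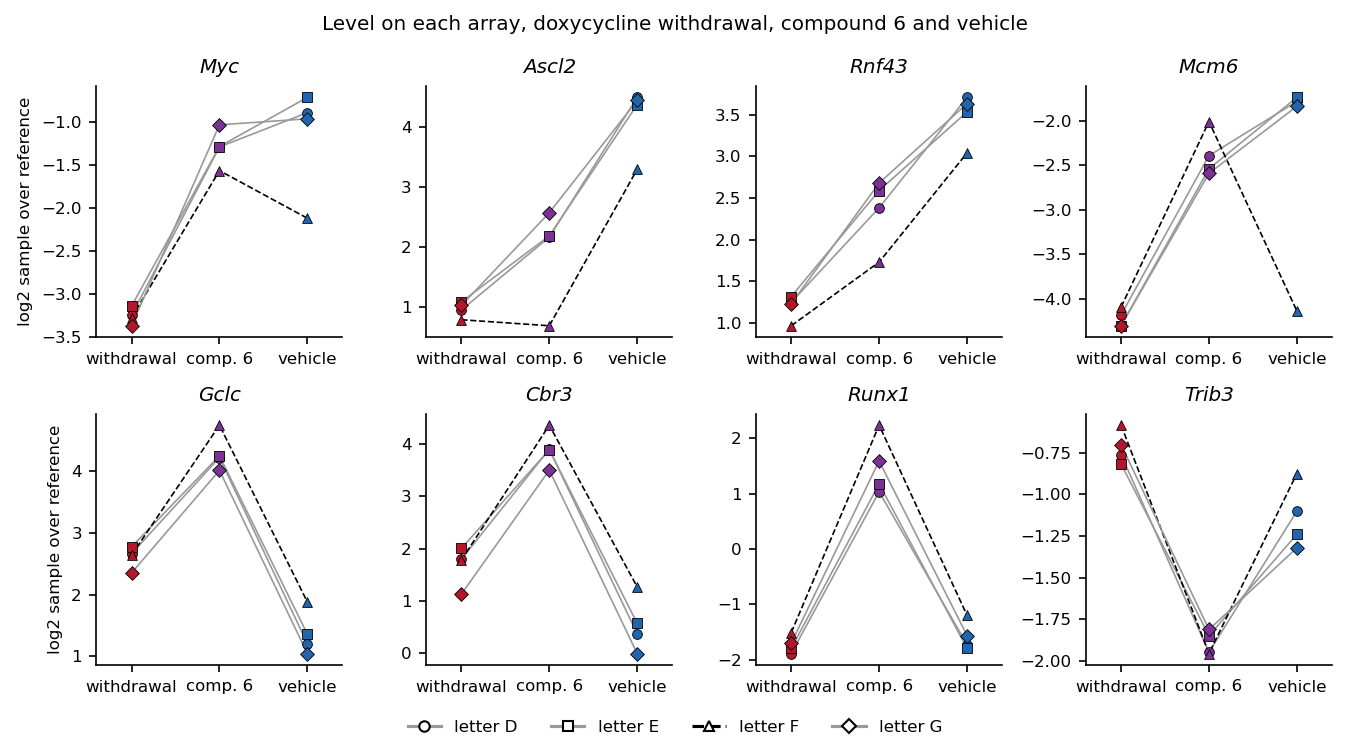
Level of 8 genes on each array, as log2 of organoid over reference RNA on the y axis, for withdrawal, compound 6 and vehicle, letters D to G; lines join arrays of a letter and letter F is dashed. Myc and Rnf43 are lowest on withdrawal, and Gclc and Runx1 are highest with compound 6.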

How the data were processed

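Each file is the deposited output of Agilent Feature Extraction 10.7.3.1 for 1 two-colour array, per the file headers: spot and background intensity in Cy3 (organoid RNA) and Cy5 (reference RNA, per the labels), processed signals, a log10 ratio of red over green, and flags. The authors also deposited a value table, read here as log2 ratios of organoid over reference because its columns correlated so with the scanner values; its centring is not stated, and its column medians ran from -0.0074 to 0.0890. The mean signals were background-corrected (normexp, offset 50), loess-normalised within arrays and turned to log2 of organoid over reference. Of 62976 spots on each array, 3671 control spots were left out after background correction, with weight 0 in loess. Summed over the 21 arrays, 157 non-uniform spot values were treated likewise, each only on the array concerned. Spots of 1 probe were averaged. A probe was kept (29631 of 55681) if its Cy3 signal was flagged well above background on 3 or more arrays, and each gene took its brightest probe (21353 genes, of which 13837 matched RefSeq by accession, 980 by symbol and 179 by synonym). Genes were fitted with limma 3.58.1 (R 4.3.3) over all 21 arrays of 5 groups with the letter as a block, and p-values were adjusted by Benjamini-Hochberg at 0.05. In deviations from group means, the 21 same-letter pairs correlated at 0.21 to 0.749 (median 0.528), so the letter was used to pair the samples. The 4 withdrawal and vehicle pairs among them also ran from 0.21 to 0.749. Other pairs had a median of -0.179, but centring on group means by itself pulls such values below 0. No dye was swapped, so a dye effect common to all arrays cancels between groups. The fit was tested on simulated data. A bound ("at least N-fold") sets the brighter group against the lowest signal well above background. Where the fold of the group means was smaller, that fold is given instead and is not a bound.

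Members and gene lists were chosen with earlier results of these data known. Genes are named by rule: the 25 most negative and 25 most positive changes among passing, RefSeq-matched genes of 1 direction in 4 letters and above background on the higher group's arrays, up to 6 passing members per list and genes that define a pathway, a fixed set with Ctnnb1, Lgr5 and Myc, and the 8 most extreme each way against compound 6; the text gives a part of these. The number of arrays limits the precision. No per-sample column was left unmapped. Alternatives were the block, the slide, other signals, filters and probe rules, and leaving out arrays. Promoter windows are from RefSeq (GRCm38.p6), while probe positions are on mm9 as in the file headers.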

Additional observations from a re-analysis of the deposited data

Results flagged for a closer look

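Among 75 groups of 4 values examined, 24 held an array whose gap to its nearest neighbour exceeded Dixon's 95% critical share of the group's range, where chance marks about 1 in 20. All 24 concerned letter F, and 19 were levels on vehicle array F among the 34 genes given array by array. Vehicle F was the lowest of its group for Lef1 at -1.81, Ascl2 at 3.29, Lgr5 at 1.00, Kcnq1 at 5.27, Slc12a2 at -0.48, Sox9 at 0.30, Pla2g5 at 0.18, Nop56 at -2.95, Ctps at -4.91, Mcm6 at -4.14, Mcm7 at -3.84, Mki67 at -4.93, Ccnd2 at -0.73, Rgcc at -0.51, Lect2 at 2.25 and Bmp7 at -0.26. It was the highest for Slc16a9 at 4.51, Gda at 1.82 and Klf4 at 1.21. On withdrawal array F, Fas (1.88) and Slc16a9 (5.00) were the highest of their group. The spread of all differences was 0.21 (SD, log2) in letter F, below the other letters. Over the genes at least 2-fold lower, the median vehicle level was -2.34 in letter F. The median S-phase difference of letter F, -0.22, was the one nearest 0. The values share the same 8 arrays, so the counts are not independent. Genes and summaries were also chosen with earlier results of these data known, so the count cannot be judged against the rate of 1 in 20.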

How the results depend on the processing

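With no replicate block in place of the paired letter, 4413 genes passed (1555 higher, 2858 lower; all among those of the fit with the block) and 3201 differed from compound 6; with the slide as a random block these were 4433 (1563 and 2870) and 3213. With the slide beside the letter 7684 passed. Agilent's log ratios gave 262 genes at least 2-fold higher and 683 lower, the authors' values gave 252 and 693, and Cy3 alone 77 higher. Leaving out arrays or letters gave 6202 to 8974 passing, 2147 to 3688 higher, 4055 to 5305 lower, 26 to 72 at least 2-fold higher, 253 to 517 at least 2-fold lower and 5638 to 6751 against compound 6; where an arm kept 3 arrays, the spread was pooled over groups. The widest of the 2-fold counts came without letter F (71 higher, 517 lower) or its vehicle array (72 and 505), and 54 were higher without withdrawal F. Of the named genes' values under all alternatives, 113 lost the call and 3 gained it. Among genes that passed in the main fit, 2 changed direction, Kcne3 (1.70) and Pck1 (-0.133), both with the authors' table. The other 3192 values were counted as the same. That count includes sign changes of genes that had not passed, such as Alpi (-0.0422 to 0.146) and Cdkn1a (-0.0863 to 0.238). Of 57 list medians 15 changed sign under some alternative. In 11 of them the median was within 1 SD of its letters and no larger than 0.0535 in size. The other 4 were the Myc network with Cy3 alone (0.0194), respiratory chain subunits with Agilent's ratios (0.0334) and the authors' table (0.00803), epithelial markers with the same (0.0896 and 0.0832), and the Hedgehog list with the mean of all probes (-0.0107). The cause was not tested. Probes near background on withdrawal give bounds only, as for Axin2 and Tcf7, or the fold of the group means, as for Pla2g5 and Tnfrsf19.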

Other observations

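Of 22 immediate early genes 6 rose and 1 fell on withdrawal against vehicle, with the stress-induced factor Atf3 at 0.46 ± 0.11 (not passing without the letter block) and Btg2, an antiproliferative gene, at -0.35 ± 0.06. Of 27 Bcl2 family and caspase genes 9 rose and 3 fell. Both lists passed in a share near the 39.1% of all genes. Markers of other cell types that passed were 3 of 13 for leukocytes, 2 of 7 for endothelium and 0 of 7 for neural and glial cells; the median level of the leukocyte markers was -1.97 to -1.85 on withdrawal and -2.08 to -1.51 on vehicle.

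Of the 21353 genes tested, 2729 were long non-coding regions of the array design and 6357 had no RefSeq match, so their changes are counted but not named. At an unadjusted p of 0.05, 9925 genes differed, against 8354 after adjustment. With no overlap between the 4 withdrawal and the 4 vehicle arrays, 1669 genes were above and 1919 below.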
